A study of Mus musculus with 10 samples.

Results

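A set of 44 lysosome and autophagy genes was followed in mouse long-term hematopoietic stem cells (LT-HSCs) with and without neogenin-1 (NEO1) on their surface. The genes were the rows of the count table whose symbol belongs to 1 of 7 classes named by function: the TFEB family of transcription factors, lysosomal membrane and lipid transport proteins, lysosomal hydrolases, subunits of the lysosomal proton pump, autophagy initiation genes, the machinery that conjugates ATG8 proteins, and the ATG8 proteins with a cargo receptor. All 44 were found among the 24544 genes of the table, and 43 of them had enough counts to be tested, out of 12203 genes tested in all. The remaining gene, Atp6v0c, held 1 count over all libraries.

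The series holds 10 RNA-seq libraries of bone marrow cells from Hoxb5-mCherry reporter mice, in which a red fluorescent protein marks cells that express Hoxb5. The mice were 2 to 3 months old. Cells of both groups carried the reporter and were gated as Lin-, cKIT+, SCA1+, CD150+, CD48-, FLK2-, CD34- and Hoxb5+. They were then divided into NEO1+ and NEO1- fractions, with 5 libraries each, to compare the transcriptomes of both fractions. Each library came from 250 to 500 sorted cells pooled from 2 mice, so it is a bulk measurement in which fewer cells of a type and less RNA per cell cannot be told apart. Per the labels every library was a sorted sample of its own, but they do not say whether NEO1+ and NEO1- cells were taken from the same animals.

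Lysosomes are acidic organelles that break down proteins, lipids, glycogen and other polymers with a set of hydrolases. The vacuolar proton pump acidifies them, and membrane proteins such as LAMP1 and LAMP2 line their inner face. Macroautophagy encloses cytoplasm or organelles in a double membrane, the autophagosome, which fuses with a lysosome. TFEB, TFE3 and MITF are related transcription factors that activate many lysosomal and autophagy genes by binding E-box sequences in their promoters, and the kinase mTORC1 on the lysosomal surface holds TFEB and TFE3 in the cytoplasm when nutrients are plentiful. In hematopoietic stem cells, autophagy is known to limit mitochondrial content, and lysosomal activity differs between quiescent and activated cells.

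Promoters of the genes were searched for the E-box, because it is a feature shared within the set that does not depend on the counts. RefSeq promoters (assembly GRCm38.p6, 250 bases before to 50 bases after the start) were given for 34 of the 44 genes. The core CACGTG was in 13 of 34 (38.2%), against 12.1% of 9579 tested genes with a promoter and 8.09% of 27025 genes with a promoter. The longer form TCACGTGA, which contains the core, was in 7 of 34 (20.6%), against 2.27% and 1.12%. The full CLEAR element, which adds 1 fixed base at either end of the longer form, was in 0 of 34, against 0.846% and 0.370%. A promoter was also given for 132 of the other genes of the same pathways, which are described further below. Of these 132, 26 held the core (19.7%), 10 the longer form (7.58%) and 4 the full CLEAR element (3.03%). The core and the longer form were thus less frequent there than in the set, but more frequent than among all genes tested. All 3 words read the same on both strands. The 7 promoters with TCACGTGA belong to a membrane channel, hydrolases, pump subunits and a conjugation enzyme. They are shown with 16 bases on either side, 5′ to 3′ on the strand of the gene, with TCACGTGA in capitals, in 1 window for each gene:
Mcoln1: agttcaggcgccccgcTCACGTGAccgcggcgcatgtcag
Ctsa: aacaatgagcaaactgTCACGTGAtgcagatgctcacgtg
Ctsd: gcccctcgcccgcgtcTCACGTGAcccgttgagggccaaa
Gla: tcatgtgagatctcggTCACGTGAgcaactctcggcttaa
Atp6v0d1: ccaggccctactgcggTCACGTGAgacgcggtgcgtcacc
Atp6v1a: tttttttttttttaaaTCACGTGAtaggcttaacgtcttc
Atg3: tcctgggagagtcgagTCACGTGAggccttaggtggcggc

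These windows lie at chr8:3500457-3500496 (Mcoln1, plus strand), chr2:164833744-164833783 (Ctsa, plus strand), chr7:142387903-142387942 (Ctsd, minus strand), chrX:134601177-134601216 (Gla, minus strand), chr8:105566045-105566084 (Atp6v0d1, minus strand), chr16:44139368-44139407 (Atp6v1a, minus strand) and chr16:45158741-45158780 (Atg3, plus strand). The middle of the word is at the start itself in Atp6v0d1, 9 bases before it in Ctsa, 42 in Mcoln1, 68 in Atg3, 95 in Ctsd, 128 in Atp6v1a and 191 in Gla. Ctsa and Gla each hold the word once more. A match of letters is a description of the promoter and not evidence of binding. The log2 fold changes between NEO1+ and NEO1- libraries were positive for 4 of these 7 genes, with a median of 0.21. This median is the value of Gla, a gene of few counts whose fold has a 95% interval of 0.193 to 6.95. Of the 26 tested genes of the set whose promoter lacks the word, 15 had a positive value, with a median of 0.05. Over all tested genes with a promoter the medians were 0.015 with the word and 0.0088 without it. These medians were not tested against each other.

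Library totals ran from 21.2 to 38.9 M counts (M, mega), and a count of 0 allows up to 3 counts, or 0.0699 to 0.144 counts per M counts (CPM), which covers counting error only. NEO1+ libraries detected 12800 to 13808 genes and NEO1- libraries 11477 to 13147, and the ribosomal RNA precursor Rn45s took 27.9% to 37.7% and 30.7% to 42.4% of their counts. Neo1 itself was at 47.5 ± 20.5 CPM in NEO1+ libraries against 10.7 ± 5.66 in NEO1- libraries (SD, n = 5 each), with a log2 fold change of 2.16 (edgeR adjusted p 0.248). NEO1+ library 4 held only 12.5 CPM of Neo1, within the NEO1- range of 4.56 to 18.9 CPM, so the values below are also given without it where a gene stands out. The 10 stem cell markers summed to 2014 to 2269 CPM in NEO1+ libraries against 1948 to 2398 in NEO1- libraries, with Hoxb5 at 0 in 1 library. Cd48, Flt3 and Cd34, for which the sort was negative, summed to 52.8 to 115.8 and 73.2 to 118.3 CPM. Most of this was Cd34 (means of 76.6 and 86.1 CPM), and all 3 had a negative log2 fold change. Flt3 was at 3.66 ± 1.46 and 12.4 ± 13.8 CPM (SD, n = 5 each), with up to 30.0 CPM in NEO1- libraries (log2 fold change -1.76, edgeR adjusted p 0.898).

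Markers of other blood cells moved with the groups or with single libraries, and they are given here because myeloid cells in particular are rich in lysosomes. The 10 neutrophil and granulocyte progenitor markers summed to 159 to 4457 CPM in NEO1+ libraries against 153 to 2720 in NEO1- libraries. In 4 libraries the sum exceeded 1000 CPM (NEO1+ 1 and 3, NEO1- 3 and 4). This list held both signs: 6 of its 10 markers had a positive log2 fold change, 0 at an unadjusted edgeR p under 0.05. Mpo (-0.79), Elane (-0.91), Prtn3 (-0.13) and Ctsg (-1.25) had negative values. S100a8, S100a9, Ngp, Ltf, Camp and Lcn2 had values of 2.36 to 3.08. The 10 monocyte and macrophage markers summed to 312 to 830 and 269 to 419 CPM, nearly all of it Lyz2, while Fcgr1 was at 0 in all 10 libraries. Lymphoid markers summed to 34.1 to 50.3 and 25.1 to 60.9 CPM, and 5 of these 10 had no count. Erythroid markers summed to 1486 to 2213 and 1412 to 1723 CPM, most of it Car2 (means of 1618 and 1484 CPM). All 7 tested erythroid markers had a positive log2 fold change, with a median of 0.90 and 1 at an unadjusted p under 0.05, and the globin genes Hbb-b1 and Hbb-bt were at 0 in all libraries. Megakaryocyte markers summed to 308 to 380 CPM in NEO1+ libraries against 149 to 226 in NEO1- libraries, and proliferation markers to 390 to 577 and 153 to 261 CPM, so in both lists the groups did not overlap. The megakaryocyte list did not move as a whole: 6 of its 9 tested markers had a positive log2 fold change, 4 at an unadjusted p under 0.05. Clu (means of 109 and 32.2 CPM), Vwf (101 and 58.9) and Selp (35.2 and 8.18) made up most of the gap. Pf4 (-0.35), Gp9 (-0.22) and Ppbp (-1.37) had negative values, and Gp6 had no count. All 10 proliferation markers had a positive log2 fold change, 7 of them at an unadjusted p under 0.05, and 0 of any marker list passed the adjusted threshold in edgeR. Apart from the neutrophil markers, whose libraries were left out in 1 alternative, the part of these cells in the values below was not tested.

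None of the lysosome and autophagy genes passed the test between NEO1+ and NEO1- libraries. With edgeR's quasi-likelihood test, 0 of 43 genes had an adjusted p under 0.05, and adjusted values ran from 0.586 for Lamp1 to 1.0. Over all 12203 genes the share was 0.0%, so the absence of calls is not particular to the set. At an unadjusted p under 0.05 there were 3 genes, Lamp1, Atp6v1a and Gabarapl1, all with the higher mean in NEO1+ libraries. This is 6.98% of 43, near the 6.6% of all genes tested (3.11% with the higher and 3.49% with the lower mean in NEO1+). With the replicate block edgeR gave 3 genes as well, against 7.16% of all genes. In 0 of 43 genes were all libraries of 1 group above all of the other, against 2.48% of all genes tested (1.35% with NEO1+ above and 1.13% with NEO1- above). Leaving out single libraries moved the unadjusted count from 3 to 1 (without NEO1+ library 3, where 5.00% of all genes tested reached that p, or NEO1+ library 5, 5.43%) and to 5 (11.6% of 43, without NEO1- library 5, where it was 7.82% of all genes). Without the 4 libraries of high neutrophil markers, which leaves 3 libraries a group, it was 1 (Atp6v1a), against 5.68% of all genes. In that smaller comparison 3 of 43 genes (6.98%) did not overlap, namely Atp6v1a, Atp6v1c1 and Atg7, a smaller share than the 14.2% of all genes. Positive log2 fold changes were found in 24 genes and negative ones in 19, and the median was 0.05, against 0.01 over all genes tested. The order of these medians was not stable: the set had -0.02 against 0.02 without NEO1- library 3, 0.07 against 0.12 with limma-voom and 0.07 against 0.13 in DESeq2 with the replicate block. The 44 genes together took 4090 to 4415 CPM in NEO1+ libraries against 4030 to 4231 in NEO1- libraries, ranges that overlap.

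**Figure D1:**
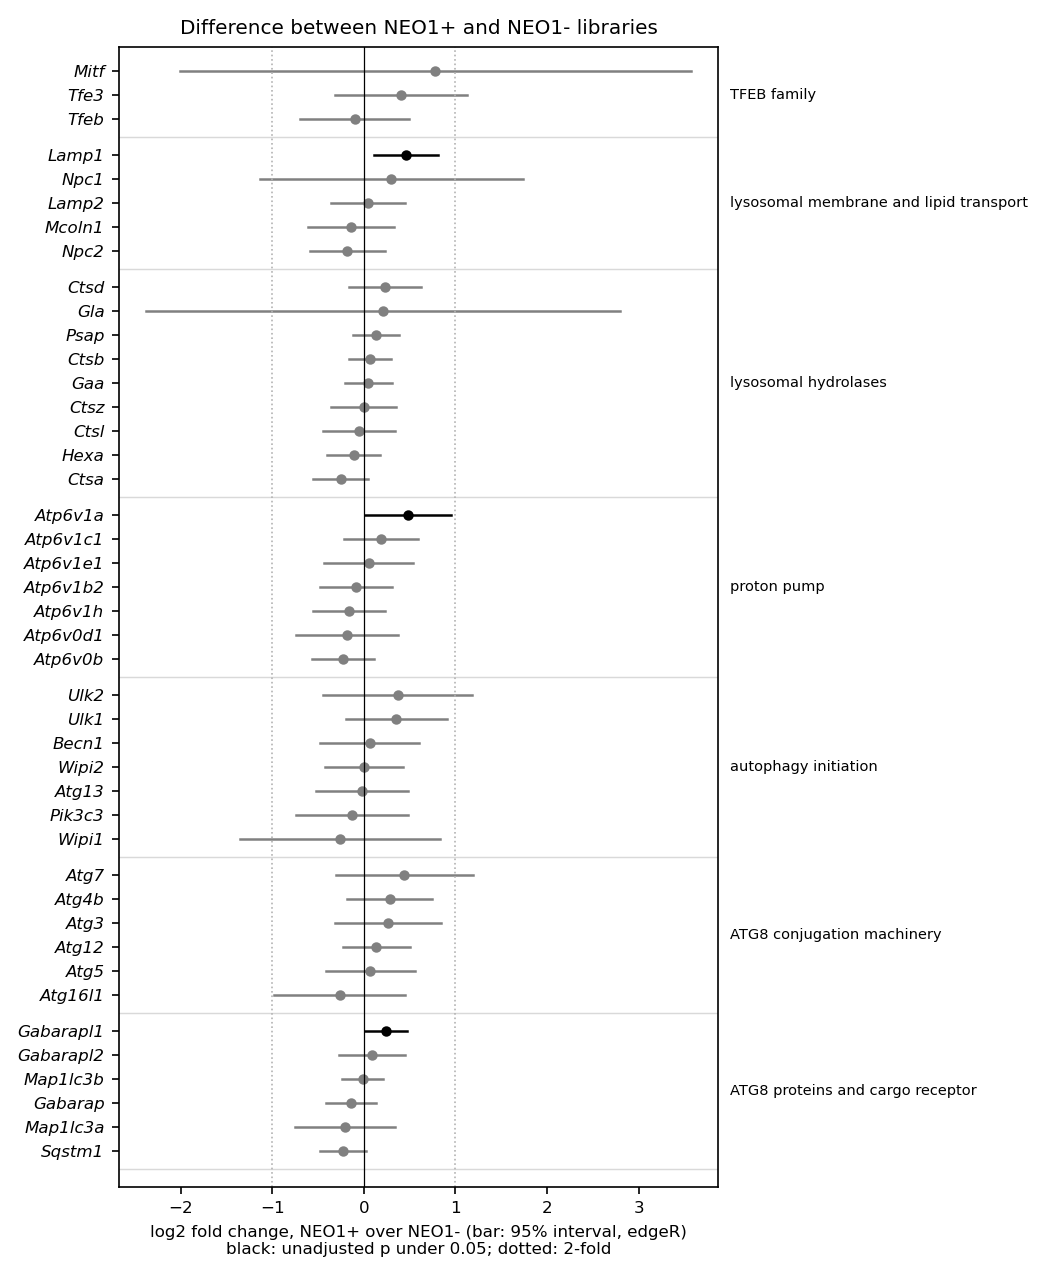
Log2 fold change of NEO1+ over NEO1- libraries (horizontal axis) with its 95% interval from edgeR for each of the 43 tested genes, grouped by function, in black at an unadjusted p under 0.05; dotted lines mark 2-fold. The interval leaves out 0 for 3 genes (Lamp1, Atp6v1a and Gabarapl1) and crosses it for the other 40, and Mitf, Gla and Npc1, which had few counts, have the widest intervals.

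The intervals show how large a difference the libraries could have hidden. For 21 of 43 genes (48.8%) the 95% interval of the fold change stayed within 1.5-fold in either direction, and for 36 (83.7%) it stayed within 2-fold, against 16.2% and 45.6% of all genes tested. Among genes with a mean of at least 20 CPM the shares were 53.8% of 39 and 28.1% of 7049 within 1.5-fold, and 92.3% and 76.0% within 2-fold. An absolute log2 fold change over 0.5 was found for 1 of 43 genes (Mitf) and for 26.5% of all genes tested. With a mean of at least 20 CPM it was found for 0 of 39 and for 10.6% of 7049. The set is more abundant than the other genes, which bears on these shares: its median was 65.5 CPM against 25.8 over all genes tested. Above 20 CPM the medians still differed, at 83.7 and 49.9 CPM. The spread between libraries was wider in the NEO1- group: the SD of log2 CPM was larger there for 36 of 43 genes (83.7%), as it was for 78.3% of all genes tested. The median SD was 0.22 in NEO1+ and 0.38 in NEO1- libraries, against 0.40 and 0.64 over all genes tested. Among genes with a mean of at least 20 CPM it was 0.19 and 0.35 in the set, against 0.28 and 0.43.

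**Figure D2:**
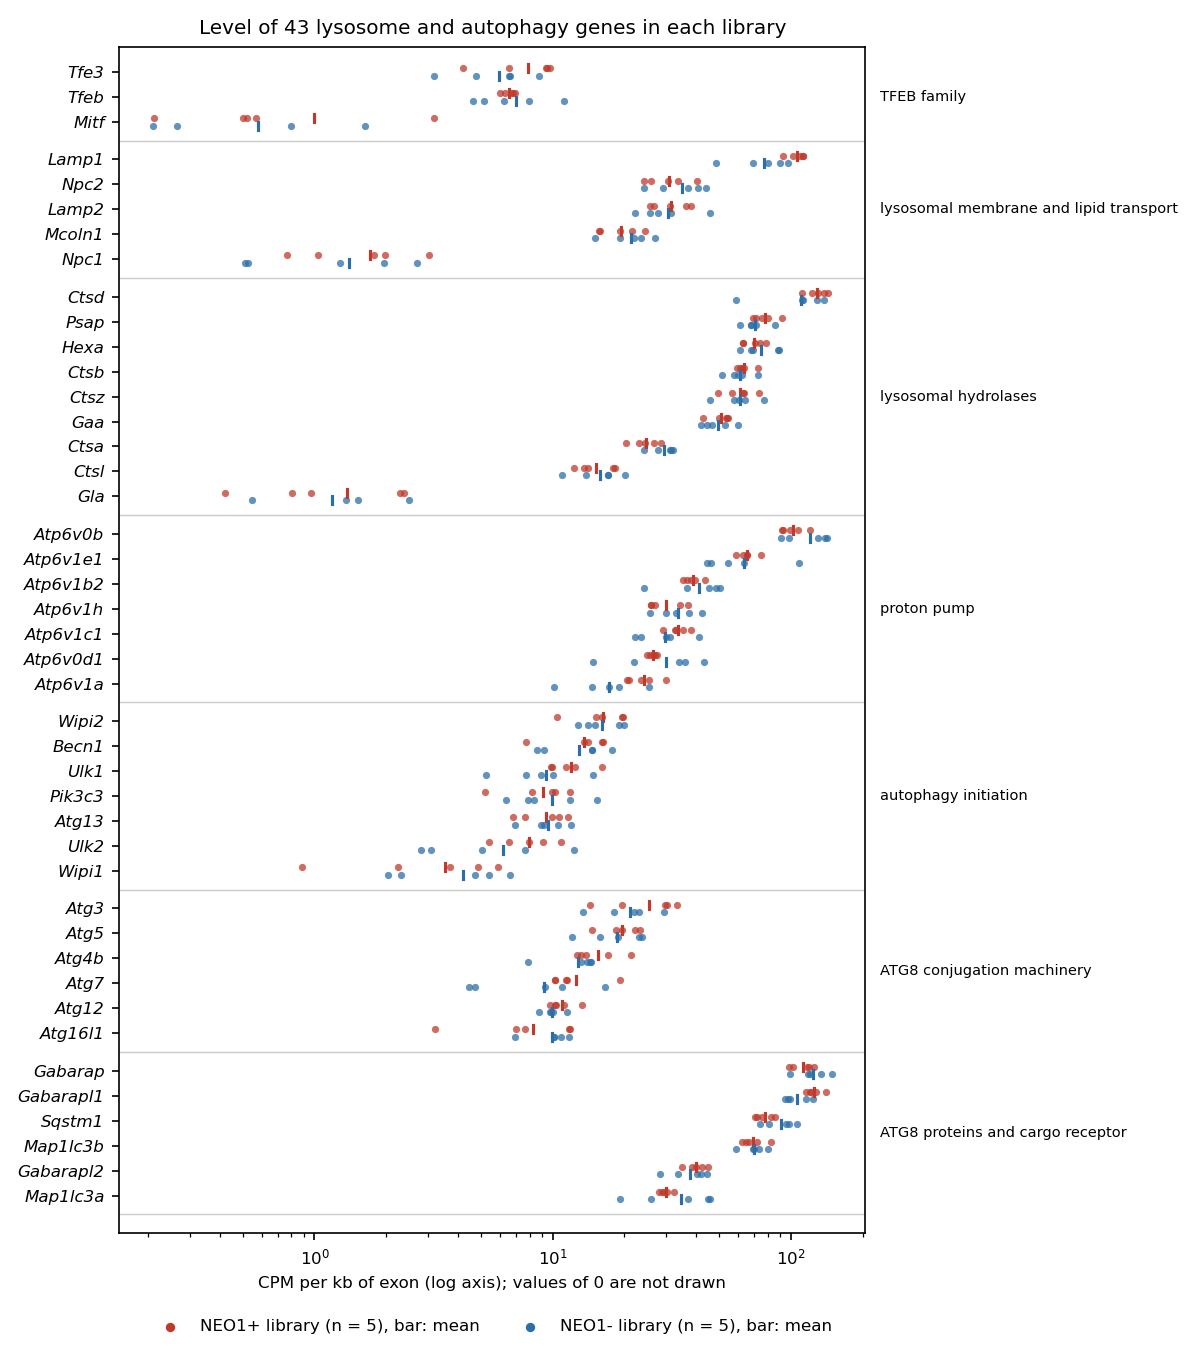
Level of the 43 tested genes in each library, in CPM per kilobase of exon on a log axis, by class. Points are libraries (red NEO1+, blue NEO1-, 5 each), bars are group means, and values of 0 are not drawn. Ctsd, Gabarap and Gabarapl1 stand highest, and Mitf, Gla and Npc1 lowest among the genes tested.

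Compared per length of exon (GENCODE M21), the most abundant transcripts were those of Ctsd, the aspartic protease cathepsin D, at a mean of 119.4 CPM per kilobase (59.0 to 143 over the 10 libraries), Gabarap (118, 98.4 to 148) and Gabarapl1 (116, 94.6 to 141). Next came Atp6v0b, a subunit of the membrane sector of the pump, at 111, and Lamp1 at 91.6 CPM per kilobase. The ranges of these neighbours overlap, so their order is not resolved. The transcription factors Tfe3 and Tfeb stood far lower, at 6.93 and 6.79 CPM per kilobase, and Wipi1, Npc1, Gla and Mitf lowest, at 3.87, 1.56, 1.28 and 0.789. Ctsd shares 31.5% of its exon bases with Gm49369, annotated on the same strand, so its counts may be split with that gene.

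The TFEB family supplies the 3 transcription factors of the set, and whether they control its other genes in these cells was not tested. Tfeb was at 27.3, 26.9, 24.2, 25.2 and 28.0 CPM in NEO1+ libraries 1 to 5 and at 20.7, 44.7, 25.1, 18.5 and 32.0 CPM in NEO1- libraries 1 to 5. The NEO1+ libraries lie close together and inside the wide NEO1- range, whose top is NEO1- library 2. The means were 26.3 ± 1.54 and 28.2 ± 10.6 CPM (SD, n = 5 each), a fold of 0.933 with a 95% interval of 0.618 to 1.41 (log2 fold change -0.10, edgeR adjusted p 0.998), and without NEO1- library 2 the log2 fold change was 0.13. Tfe3, a close relative of Tfeb, was at 34.0, 35.3, 15.3, 23.8 and 34.4 CPM in NEO1+ and at 31.6, 23.7, 11.5, 17.3 and 24.0 CPM in NEO1- libraries. Library 3 was the lowest of each group and the groups overlap, with a log2 fold change of 0.40 (SE 0.33) and an edgeR adjusted p of 0.935. Mitf, the melanocyte and mast cell factor of the family, was at 3.03, 16.9, 2.77, 1.13 and 2.67 CPM in NEO1+ and at 0, 1.41, 1.12, 4.26 and 8.67 CPM in NEO1- libraries. NEO1+ library 2 alone held most of the NEO1+ counts, and the interval of the fold, 0.248 to 11.9, sets hardly any limit. Its log2 fold change was 0.78, but -0.36 without NEO1+ library 2, 1.64 without NEO1- library 5 and 1.86 with limma-voom.

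Lamp1 had the smallest p of the whole set. It encodes an abundant glycoprotein of the lysosomal membrane and lies at chr8:13159161-13175338 on the plus strand (GRCm38, GENCODE M21). It was at 244, 207, 251, 251 and 227 CPM in NEO1+ libraries and at 178, 218, 155, 200.4 and 109 CPM in NEO1- libraries. All but 1 of the NEO1- libraries lie below every NEO1+ library, the exception being NEO1- library 2, which exceeds NEO1+ library 2. The means were 236 ± 19.0 and 172 ± 42.6 CPM (SD, n = 5 each), a fold of 1.37 with a 95% interval of 1.08 to 1.75 (log2 fold change 0.46, SE 0.16, unadjusted p 0.0138, edgeR adjusted p 0.586). Without NEO1+ library 4 the log2 fold change was 0.43. DESeq2 gave an adjusted p of 0.234, which became 0.0189 when the number of the library entered as a block, the only call of any of the 43 genes among the fits tried (DESeq2 with the block called 5.08% of all genes it tested). Of the exon bases of Lamp1, 7.9% overlap Grtp1 on the opposite strand, and whether counting used strand is not given in the sources used here.

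The other membrane and lipid transport genes had log2 fold changes from -0.18 to 0.30. Lamp2, the companion of Lamp1 that also serves chaperone-mediated autophagy, was at 159 ± 28.0 and 154 ± 46.5 CPM. Npc2, which hands cholesterol to Npc1 for export, was at 102 ± 21.1 and 115 ± 27.0 CPM, and Npc1 itself at 8.97 ± 4.65 and 7.29 ± 4.92 CPM. Mcoln1, the calcium channel of the lysosomal membrane whose promoter window is shown above, was at 39.9 ± 7.77 and 44 ± 9.19 CPM (SD, n = 5 each), with a log2 fold change of -0.14. The 5 genes together took 458 to 620 CPM in NEO1+ libraries against 403 to 597 in NEO1- libraries.

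**Figure D3:**
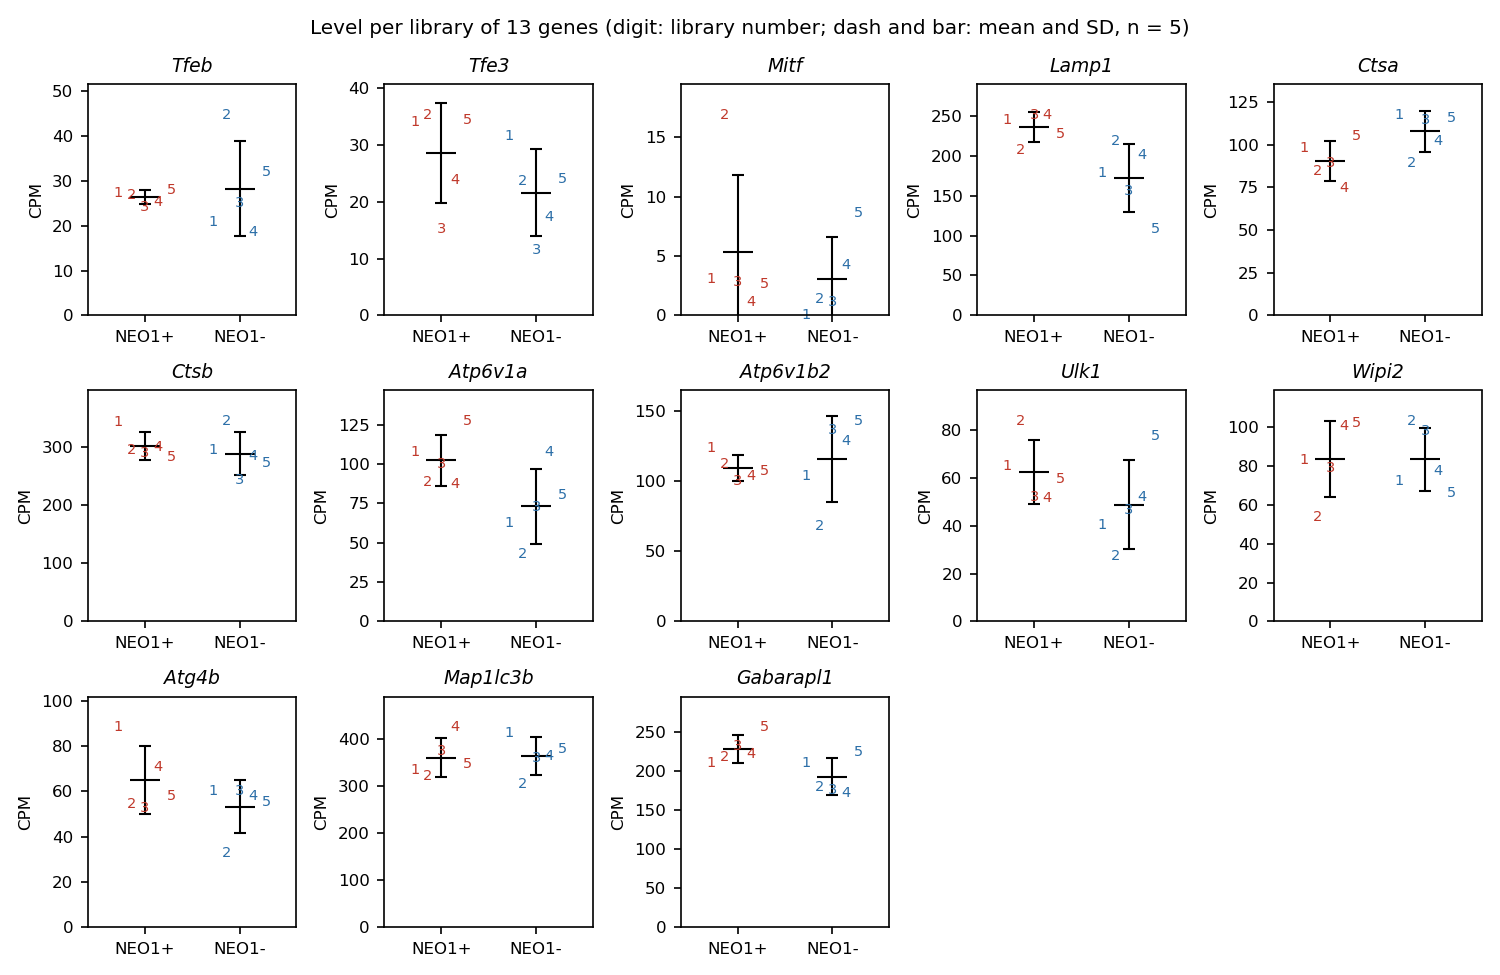
CPM of 13 genes in each library (a digit is the number of the library) with the mean and SD of each group of 5 libraries as dash and bar. Lamp1, Atp6v1a and Gabarapl1 have the higher mean in NEO1+ libraries with overlapping groups, and the NEO1- libraries are more spread than the NEO1+ libraries for Tfeb and Atp6v1b2; an SD bar that would pass below 0 (Mitf) ends at the axis.

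Among the 9 hydrolases 5 log2 fold changes were positive and 4 negative, with a median of 0.05. Ctsa, the carboxypeptidase cathepsin A that also shields β-galactosidase and neuraminidase from degradation, was at 98.0, 84.6, 89.4, 74.7 and 104.9 CPM in NEO1+ and at 117.7, 89.1, 114.4, 102.1 and 115.6 CPM in NEO1- libraries. In 3 NEO1- libraries it was above all NEO1+ libraries, and NEO1- libraries 2 and 4 lie among them. The log2 fold change was -0.25 (SE 0.14, 95% interval of the fold 0.680 to 1.03, edgeR adjusted p 0.823), and 22.3% of its exon bases overlap genes on the opposite strand. Ctsb, the cysteine protease cathepsin B and the hydrolase with the most counts, was at 344, 294.5, 291, 301 and 282.5 CPM in NEO1+ and at 296, 346, 243, 285 and 274 CPM in NEO1- libraries. The groups overlap almost wholly, and the 95% interval of its fold of 1.05 was 0.896 to 1.23 (edgeR adjusted p 0.997).

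Of the other hydrolases, Ctsd was at 274 ± 27.1 CPM in NEO1+ libraries against 234 ± 65.2 in NEO1- libraries, where NEO1- library 1 stood lowest at 125 CPM (log2 fold change 0.23, edgeR adjusted p 0.923). Psap, the precursor of the saposins that help degrade sphingolipids, was at 213 ± 24.96 and 194 ± 25.3 CPM, and Gaa, which degrades glycogen, at 207 ± 19.9 and 200.3 ± 29.3 CPM. Hexa, a subunit of β-hexosaminidase, was at 139 ± 13.7 and 150.2 ± 25.6 CPM (SD, n = 5 each). The cysteine cathepsins Ctsl and Ctsz had log2 fold changes of -0.05 and 0.00. Gla, α-galactosidase A, was low, at 4.35 ± 2.85 and 3.76 ± 3.04 CPM, with 0 counts in NEO1- library 3 and a log2 fold change of 0.21. Summed over the class, NEO1+ libraries held 1269 to 1554 CPM and NEO1- libraries 1313 to 1477 CPM.

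The proton pump has a membrane sector (V0) that carries protons and a cytosolic sector (V1) that splits ATP. Atp6v1a, which encodes the catalytic subunit of V1, lies at chr16:44085402-44139705 on the minus strand. It was at 107.7, 88.7, 99.9, 87.4 and 127.6 CPM in NEO1+ and at 62.4, 43.1, 73.0, 107.8 and 80.3 CPM in NEO1- libraries. All NEO1- libraries but number 4 lie below every NEO1+ library, while NEO1- library 4 exceeds 4 of 5 NEO1+ libraries. The means were 102.3 ± 16.4 and 73.3 ± 23.8 CPM (SD, n = 5 each), a fold of 1.39 with a 95% interval of 1.01 to 1.93 (log2 fold change 0.48, SE 0.22, unadjusted p 0.0448, edgeR adjusted p 0.745). Without NEO1+ library 4 the log2 fold change was 0.53. The unadjusted edgeR p was no longer under 0.05 without NEO1+ library 1, 3 or 5, or without NEO1- library 1, 2, 3 or 5.

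Atp6v1b2, the subunit that forms the ATP-splitting ring together with the product of Atp6v1a, did not share that difference in means. It was at 123, 112, 99.9, 104 and 107 CPM in NEO1+ and at 103.5, 68.2, 137, 128 and 143 CPM in NEO1- libraries. NEO1- library 2 was the lowest and NEO1- libraries 3 to 5 the highest of all 10, and the log2 fold change was -0.09 (edgeR adjusted p 0.998). Whether the fold changes of both genes differ from each other was not tested. In the other tested subunits the log2 fold changes were -0.23 (Atp6v0b), -0.18 (Atp6v0d1), 0.18 (Atp6v1c1), 0.05 (Atp6v1e1) and -0.16 (Atp6v1h). Atp6v0d1 spanned 40.7 to 44.9 CPM in NEO1+ libraries against 24.0 to 70.0 in NEO1- libraries. Atp6v1e1 was at 142 CPM in NEO1- library 1, against 58.2 to 98.8 CPM in the other 9. The class as a whole took 537 to 629 and 483 to 625 CPM.

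Atp6v0c, which encodes the proton-carrying ring subunit of the pump, held 1 count, in NEO1+ library 5. Of the 50-base words of its longest coding transcript, read on either strand, 32.5% also occur in other annotated genes. Nearly all of these are in the pseudogene Atp6v0c-ps2 (32.3%), which held 0 counts in the table. How reads with more than 1 match were counted is not given in the sources used here, so this level is not read as absence of the transcript.

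Autophagy starts with the ULK1 kinase complex, the class III phosphoinositide 3-kinase and the WIPI proteins that read its lipid product. Ulk1 was at 65.1, 84.0, 52.1, 51.7 and 59.7 CPM in NEO1+ and at 40.4, 27.4, 46.7, 52.3 and 77.6 CPM in NEO1- libraries. In 3 NEO1- libraries it was below all NEO1+ libraries, but NEO1- library 5 exceeded 4 of them, and the log2 fold change was 0.36 (SE 0.26, 95% interval of the fold 0.873 to 1.87, edgeR adjusted p 0.900). Ulk2, its paralog, had nearly the same value, 0.37, with a range of 16.01 to 70.6 CPM in NEO1- libraries that encloses the 31.0 to 62.4 CPM of NEO1+ libraries. Atg13, the partner of both kinases, had 34.2 ± 7.40 and 34.8 ± 6.77 CPM (SD, n = 5 each).

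Wipi2, which recruits the conjugation machinery to the forming membrane, was at 82.9, 53.9, 78.9, 100.6 and 102.3 CPM in NEO1+ and at 72.6, 103.5, 98.1, 77.6 and 66.4 CPM in NEO1- libraries. The groups cover nearly the same span, and the fold was 1.0 with a 95% interval of 0.746 to 1.34 (edgeR adjusted p 1.0). Wipi1 was lower and more uneven, from 3.79 to 25.1 CPM in NEO1+ and from 8.71 to 28.4 CPM in NEO1- libraries. Becn1 and Pik3c3, members of the lipid kinase complex, had log2 fold changes of 0.06 and -0.13. Read on either strand, 45.7% of the 50-base words of Becn1 occur in Cntd1, a gene that overlaps it on the opposite strand. Together the 7 initiation genes took 291 to 363 and 298 to 361 CPM.

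**Figure D4:**
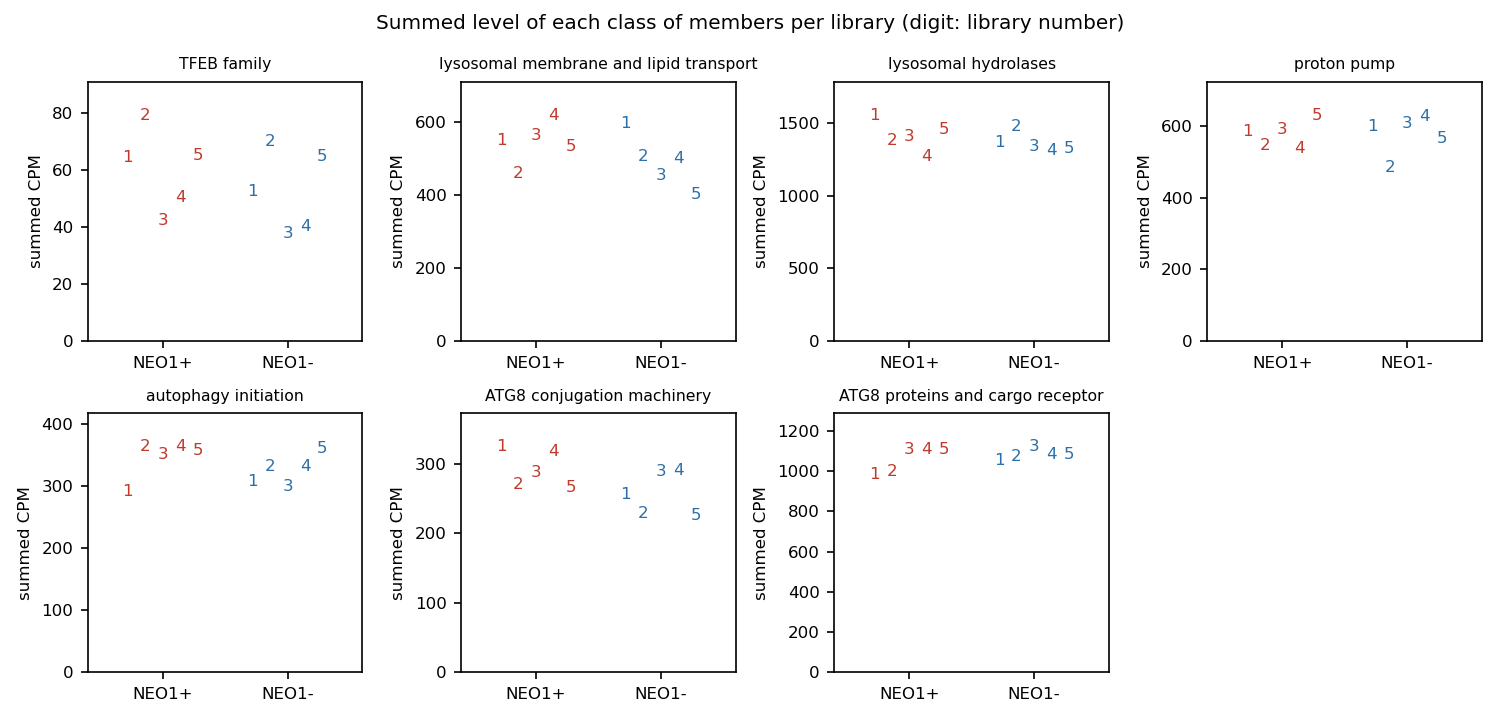
Summed CPM of each of the 7 classes in every library, where a digit is the number of the library and its place on the vertical axis the value. The groups overlap in all 7 classes; the conjugation machinery is at 266 to 324 CPM in NEO1+ libraries against 226 to 290 in NEO1- libraries.

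The conjugation machinery attaches ATG8 proteins to the lipid phosphatidylethanolamine. Of its 6 genes, 5 had a positive log2 fold change, with a median of 0.20, and 0 reached an unadjusted p under 0.05. Atg4b, the protease that trims ATG8 proteins before conjugation, was at 88.6, 54.6, 52.6, 71.0 and 57.8 CPM in NEO1+ and at 60.1, 32.8, 60.3, 58.2 and 55.1 CPM in NEO1- libraries. Apart from NEO1- library 2, which is the lowest of all 10, the NEO1- libraries lie inside the NEO1+ range, and the log2 fold change was 0.28 (SE 0.22, 95% interval of the fold 0.883 to 1.68, edgeR adjusted p 0.916). Atg7, the E1-like enzyme of the pathway, was at 51.1 ± 15.5 and 37.6 ± 20.5 CPM, with NEO1+ library 1 highest at 78.5 CPM and NEO1- libraries 2 and 5 lowest at 19.3 and 18.2 CPM (log2 fold change 0.44, edgeR adjusted p 0.923). Atg3, the E2-like enzyme, had a log2 fold change of 0.27, and Atg5 and Atg12, which are joined to each other, had 0.07 and 0.14. Atg16l1, which anchors that pair to the membrane, had -0.26, with a low of 10.2 CPM in NEO1+ library 5.

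ATG8 proteins coat the autophagosome and hold cargo receptors. Gabarapl1, at chr6:129533160-129542346 on the plus strand, was at 210.7, 218, 232, 222 and 257 CPM in NEO1+ and at 210.7, 180.04, 176, 172 and 225 CPM in NEO1- libraries. NEO1- libraries 1 and 5 lie within the NEO1+ range and the other 3 below it. The means were 228 ± 17.8 and 193 ± 23.5 CPM (SD, n = 5 each), a fold of 1.18 with a 95% interval of 1.01 to 1.39 (log2 fold change 0.24, SE 0.11, unadjusted p 0.0431, edgeR adjusted p 0.728). The log2 fold change was 0.25 without NEO1+ library 4, but the unadjusted edgeR p was then no longer under 0.05. The same held without NEO1+ library 2, 3 or 5 and without NEO1- library 2, 3 or 4. Of the 50-base words of its longest coding transcript, read on either strand, 18.6% occur in 1700101I11Rik, a gene that overlaps it on the opposite strand.

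Map1lc3b, which encodes the LC3B protein widely used as an autophagosome marker, was at 334, 322, 375, 427 and 347 CPM in NEO1+ and at 414, 304, 360.1, 364 and 381 CPM in NEO1- libraries. The groups cover nearly the same span, and the fold of 0.991 had a 95% interval of 0.847 to 1.16 (edgeR adjusted p 1.0). Transcript levels do not measure the lipid-bound protein or the flux through autophagy. Gabarap, Gabarapl2 and Map1lc3a had log2 fold changes of -0.14, 0.09 and -0.21, and Map1lc3a spanned 31.2 to 36.1 CPM in NEO1+ but 21.3 to 50.9 CPM in NEO1- libraries. Sqstm1, the cargo receptor p62, which binds ubiquitinated cargo and is itself degraded by autophagy, was at 219 ± 18.7 and 257 ± 37.4 CPM (SD, n = 5 each), with a log2 fold change of -0.23 (unadjusted p 0.0687, edgeR adjusted p 0.800) and 20.5% of its exon bases overlapping Mrnip on the opposite strand.

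**Figure D5:**
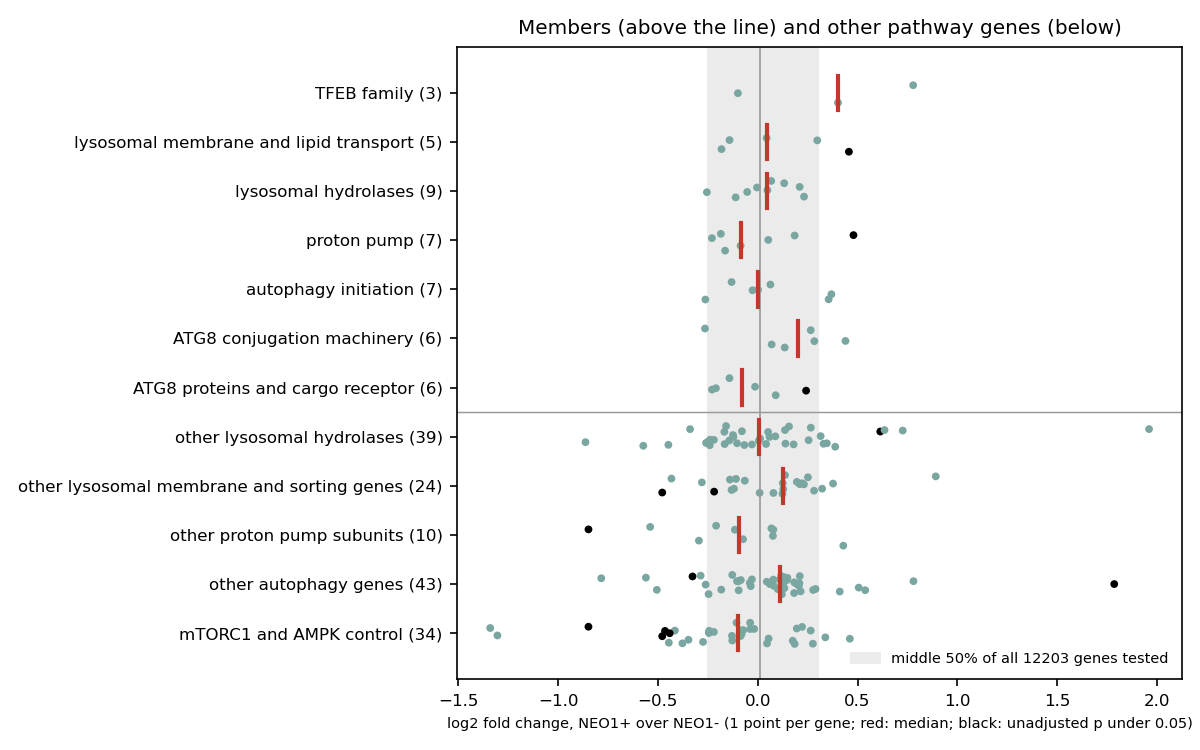
Log2 fold changes of NEO1+ over NEO1- libraries for the tested genes (points, black at an unadjusted p under 0.05) in the 7 classes above the line and in 5 further lists below it, with the median of each in red. The grey band holds the middle 50% of all genes tested and the grey line is their median. Medians of the further lists lie between -0.10 and 0.12.

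Other genes of the same pathways were read in the same fit. Of 159 further genes in 5 lists, 150 were tested, with 76 positive and 74 negative log2 fold changes and a median of 0.01, and 0 passed in edgeR. At an unadjusted p under 0.05 there were 10 (6.67%, against 6.6% of all genes tested), 2 with the higher mean in NEO1+ and 8 with the lower. In 3 of the 150 the groups did not overlap, against 2.48% of all genes tested in either direction. These were Sort1, Lamtor2 and Lamtor4, all lower in NEO1+ libraries, where 1.13% of all genes tested were placed so. Whether the count differs from these shares was not tested. Other hydrolases (39 tested) had a median of 0.01. Ctsc, the protease that activates granule serine proteases, had the smallest p of the positive ones, at 177 ± 41.1 and 116 ± 12.7 CPM (SD, n = 5 each; log2 fold change 0.61, edgeR adjusted p 0.390). Fuca1, a fucosidase, had that of the negative ones (-0.34). In the other membrane and sorting genes (24 tested, median 0.12) these were Ctns, the cystine exporter (0.89), and Sort1, a sorting receptor, at 43.2 ± 5.21 and 60.2 ± 12.5 CPM (SD, n = 5 each; -0.48, edgeR adjusted p 0.631).

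Among other pump subunits (10 of 17 tested, median -0.09), Atp6v0a1 and Atp6v0a2, alternative forms of the large V0 subunit, had opposite signs. Atp6v0a2 was at 28.2 ± 8.22 CPM in NEO1+ libraries against 50.8 ± 10 in NEO1- libraries (SD, n = 5 each; log2 fold change -0.85, edgeR adjusted p 0.465) and Atp6v0a1 at 21 ± 8.76 and 15.6 ± 7.35 CPM (0.43). Other autophagy genes (43 tested, 27 positive, median 0.11) were led by Optn, the cargo receptor optineurin, at 22.7 ± 8.08 and 6.59 ± 4.21 CPM (SD, n = 5 each; 1.79, edgeR adjusted p 0.604), and by Vamp8, a SNARE of autophagosome fusion (-0.33). In the mTORC1 and AMPK list (34 tested) 24 values were negative and 10 positive, with a median of -0.10. Of all genes tested, 51.0% had a positive value. An unadjusted edgeR p under 0.05 was found for 4 of the 34 (11.8%, against 6.6% of all genes tested). All 4 were lower in NEO1+ libraries, as were 3.49% of all genes tested at that p. In 2 of the 34 the groups did not overlap, both lower in NEO1+ libraries, against 1.13% of all genes tested. Whether the list differs from all genes was not tested. Rragc, a Rag GTPase, had the smallest p of the positive ones (0.46). Lamtor2, a subunit of the Ragulator complex that tethers mTORC1 to the lysosome, was at 36.0, 37.0, 34.9, 36.0 and 33.7 CPM in NEO1+ and at 48.0, 49.9, 51.7, 50.7 and 47.2 CPM in NEO1- libraries. The groups do not overlap, at -0.48 (SE 0.16) on the log2 scale, with an edgeR adjusted p of 0.553 and a DESeq2 adjusted p of 0.00436 (DESeq2 called 1.03% of the genes it tested). With the replicate block the DESeq2 adjusted p was 0.147.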

How the data were processed

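The authors deposited unnormalized read counts by gene symbol, and log2 values, each equal to log2 of the count over 1 constant per library plus 1 (largest residual 5.15e-14). The submitters' processing notes name bcl2fastq 2.18, STAR 2.4, DESeq, DESeq2 1.22.2 and mm10; the counting tool, annotation and strand use are not given in the sources used here. Per the labels' protocols, RNA was copied from poly(A) tails by Smart-seq2 with 18 PCR cycles, and 40 ng of cDNA was tagmented. There were no molecular identifiers, so PCR copies count as reads.

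Counts were tested over 12203 genes by quasi-likelihood in edgeR 4.0.16 (R 4.3.3; TMM, filterByExpr, robust) with Benjamini-Hochberg adjustment at 0.05; the common biological coefficient of variation was 0.717. CPM use TMM effective sizes, and log2 CPM a prior count of 2. Each SE is the size of the log2 fold change divided by √F. Alternatives were DESeq2 1.42.0, limma 3.58.1 (voom, and trend on the deposited log2 values), RLE scaling and no count filter. Further alternatives were a replicate block, leaving out Rn45s and leaving out each library. The reported edgeR fit was also run on simulated counts. The outcome of that run is not given here, and no conclusion on the genes of the set is drawn from it. No libraries of a group were alike within sampling noise (chi-square per degree of freedom at least 86.7). Gene positions and exon lengths come from GENCODE M21, promoters from RefSeq. Genes, lists and tests were chosen with earlier results of these data known. Values in every library are given for the TFEB family, the gene of smallest p and of highest mean CPM in each class, and any gene at an unadjusted p under 0.05 or without overlap; of each further list, the gene of smallest p in each direction is named.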

Additional observations from a re-analysis of the deposited data

Results flagged for a closer look

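Atg4b in NEO1- library 2 stood apart from its group, at a log2 CPM of 5.04 (32.8 CPM, 700 counts) against 5.79 to 5.92 in the other 4 NEO1- libraries. The gap to the nearest library was 0.853 of the range, above Dixon's 95% critical value of 0.71 for 5 values. Of 26 groups of 5 examined, 1 had such a gap, where 1.3 are expected by chance.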

How the results depend on the processing

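Over 19 alternatives, 1 of them (leaving out the 4 libraries of high neutrophil markers) chosen after seeing the data, the number of genes called over the whole table was 0 as reported and 2 without a count filter, 2 with limma-voom, 1 with limma-trend, 147 with DESeq2, 704 with DESeq2 and the replicate block, 0 with the block in edgeR, and 0 to 1 with a library left out. Of the 43 lysosome and autophagy genes, DESeq2 with the block called 1 and every other fit 0. The number at an unadjusted p under 0.05, 3 as reported, was 5 with DESeq2 and the block (14.4% of all genes), 1 to 5 with a library left out (5.00% to 7.98% of all genes) and 1 in the added alternative (5.68%). The number without overlap was 0 to 1 with a library left out (Lamp1 without NEO1+ 2 or NEO1- 2, Atp6v1a without NEO1- 4), where 3.20% to 4.56% of all genes did not overlap, and 3 in the added alternative, where 14.2% did not. The median log2 fold change ran from -0.018 to 0.079 with a library left out.

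Of 13 genes given in every library 7 kept their sign throughout, as did all 10 named genes of the further lists, of which DESeq2 called Lamtor2 and DESeq2 with the block Ctsc, Atp6v0a2 and Optn. Log2 fold changes reversed for Tfeb with limma-voom (0.022) and ran from -0.22 to 0.13 with a library left out. For Mitf they ran from -0.36 to 1.64 in the same way and were 1.86 with limma-voom, 1.56 with limma-trend and 1.35 with the block in edgeR and in DESeq2. Ctsb (-0.058) and Atp6v1b2 (0.039) reversed in the added alternative, and Atp6v1b2 ran from -0.23 to 0.0019 with a library left out. Wipi2, near 0 as reported, was -0.0035 with RLE scaling, -0.0036 with DESeq2, -0.011 with limma-voom, -0.018 with limma-trend, -0.0089 with the block in edgeR and -0.014 with DESeq2 and the block, and -0.081 to 0.13 with a library left out. Map1lc3b ran from -0.081 to 0.037 in the same way. The causes were not tested. The median of all genes, 0.01 as reported (0.05 for the 43), was 0.12 with limma-voom (0.07), 0.11 with limma-trend (0.07), 0.10 with the block in edgeR (0.07) and 0.13 with DESeq2 and the block (0.07). The labels do not say whether equal replicate numbers pair the libraries, and this is not settled by the data. Correlations of same-numbered deviations were 0.0040 to 0.0359, and 3 of 5 NEO1+ libraries correlated best with their own number. Such small values cannot tell whether the numbers mark pairs. With the block in edgeR the number at an unadjusted p under 0.05 was 3 of 43 and 874 of all genes. With 5 libraries a group and 4 genes under 20 CPM, any fold change within the intervals given is compatible with the data.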

Other observations

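Lamtor2 was one of the 5 Ragulator subunits, Lamtor1 to Lamtor5, of which 4 had a negative log2 fold change; this group was chosen after its values were seen. Lamtor4 was at 24.3 ± 2.81 CPM in NEO1+ libraries against 32.3 ± 5.34 in NEO1- libraries (SD, n = 5 each; log2 fold change -0.42), and Lamtor5 at 62.5 ± 12.6 and 84.8 ± 10.7 CPM (-0.44). Lamtor1 was at 63.2 ± 2.2 and 66.5 ± 15.4 CPM (-0.07), and Lamtor3, the exception, at 60.1 ± 7.03 and 50.1 ± 15.5 CPM (0.27). Rraga, a GTPase that Ragulator activates, was at 14.2 ± 2.81 and 25.5 ± 7.70 CPM (-0.85), while its partner Rragc had a value of the opposite sign. None passed in edgeR, and of the 5 subunits only Lamtor2 passed in DESeq2.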
